A study of Mus musculus with 7 samples.

Results

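The mitochondrial ribosomal protein genes were taken as every row of the count table whose symbol begins with Mrpl or Mrps followed by a number, which gave 77 of 24084 genes, 48 for the large subunit (Mrpl) and 29 for the small subunit (Mrps). Mitochondria keep their own ribosome, which translates the few proteins encoded by mitochondrial DNA, all of them parts of the respiratory chain and ATP synthase. Every protein of that ribosome is encoded in the nucleus, made in the cytosol and imported, while its RNAs come from the mitochondrial genome. The small subunit reads the messenger RNA, the large subunit forms the peptide bond, and the large subunit stays on the inner membrane, into which most products are inserted. In T cells, mitochondrial translation is known to feed the respiratory chain that supports activation and, in regulatory T cells, suppressive function.

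The genes were compared between regulatory T cells (Tregs, the Foxp3-expressing T cells that restrain immune responses) from skin and from lymph nodes. The tested cells were Tregs of telogen skin, the resting phase of the hair cycle (4 libraries, skin 1 to 4), and they were set against Tregs of the skin-draining lymph nodes, SDLN (3 libraries, SDLN 1 to 3). All 7 libraries came from mice of the strain given as Foxp3-DTR, in which Foxp3-expressing cells carry the diphtheria toxin receptor, at 6 weeks of age. No toxin or other treatment is named in the labels. The sources used here give neither the gates of the sort nor the animals behind each library, so p-values measure the spread between these libraries, which may be technical in part.

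The libraries held 11009609 to 13921238 counts on genes in skin and 13123241 to 14785751 in SDLN, so a floor of 3 counts stood for 0.203 to 0.272 on the CPM scale (counts per 1000000 counts of the library), taken there before any scaling; all other CPM are on TMM-scaled library sizes. Skin 1 is titled and sourced as skin but its tissue tag names the lymph node, and it is treated as skin here. SDLN 3 stood apart by sex: it held 3877 counts of the Y-linked gene Ddx3y and 4 of Xist, while the other 6 libraries held at most 2 of Ddx3y and 4653 to 11758 of Xist. Between 9690 and 12639 genes had a count in the skin libraries, against 13408 to 13845 in the SDLN libraries. Of 6 Treg and T cell markers, Ctla4 and Ikzf2 rose in skin and 4 did not pass edgeR's test: Foxp3 stood at 107 to 248 CPM in skin and at 69.0 to 102 CPM in SDLN (log2 fold change 0.93), and the estimates of Cd3e (-1.07), Cd4 (-0.66) and Il2ra (-0.28) were below 0, like most of the ribosomal protein genes. Macrophage and dendritic cell markers, 12 in the table, summed to 709 to 10282 CPM in skin and 347 to 548 CPM in SDLN, with Cd207 at 0 in every library. Keratinocyte markers (7, with Krt1 and Lor at 0 in every library) summed to 0.143 to 684 CPM in skin and 2.49 to 2.65 CPM in SDLN, and fibroblast markers (5) to 2.71 to 1997 CPM in skin and 0.232 to 0.882 CPM in SDLN, both highest in skin 3. The edgeR test covered 8 macrophage and dendritic cell markers and called 4, all higher in skin. It covered 1 keratinocyte marker, called lower in skin (log2 fold change -6.36), and called 0 of 3 fibroblast markers. Of all genes tested, 7.24% were called. Of the endothelial markers, Pecam1 stood at 16.2 to 62.7 CPM in skin and 388 to 548 CPM in SDLN, while Cdh5 was at 0 in every library but skin 3 (7.76 CPM). Of the B cell markers, Ms4a1 stood at 0 to 2.20 CPM in skin and 6.72 to 9.04 CPM in SDLN, Cd79a at 0 to 2.99 CPM in skin and 6.85 to 12.7 CPM in SDLN, and Cd79b at 0 to 38.4 CPM in skin and 52.1 to 76.1 CPM in SDLN. CD8 T cell markers (2) summed to 0.0920 to 69.0 CPM in skin and 43.0 to 46.6 CPM in SDLN. The part of these other cells in the results on the ribosomal protein genes was not tested.

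All 77 genes are protein-coding in the GENCODE annotation of mm10 and lie on 17 chromosomes. A protein-coding neighbour starts on the opposite strand within 1000 bases upstream for 18 of them (23.4%), against 6.79% of 21951 protein-coding genes. RefSeq promoters (GRCm38.p6, from 250 bases before to 50 after the start) were held for 68 of the 77 genes, 74 promoters in all. Motifs known to bind factors of housekeeping and mitochondrial genes were searched on both strands. CCGGAAG, the core bound by ETS factors such as GABP, was in 25 of the 74 promoters (33.8%), against 11.6% of 21263 promoters of protein-coding genes. GCATGCGC, the core bound by NRF1, was in 8 (10.8%), against 3.52%, and AAGATGGC, the core bound by YY1, was in 12 (16.2%), against 3.05%. At least 1 of the 3 motifs was in 37 of the 74 promoters, against 16.7% of protein-coding promoters. A match describes the letters only.

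The stretches before the first exon of 4 members are shown, because Mrps17 and Mrps14 had the smallest p-values of the small subunit, and Mrps27 and Mrpl22 were lower in every skin library than in every SDLN library and hold motifs. Each is on the plus strand, and capitals mark a motif in either direction.
Mrps17, chr5:129715377-129715496: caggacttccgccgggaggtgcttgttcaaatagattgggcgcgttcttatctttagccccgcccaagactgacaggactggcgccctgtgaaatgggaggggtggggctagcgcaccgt
Mrps14, chr1:160195095-160195214: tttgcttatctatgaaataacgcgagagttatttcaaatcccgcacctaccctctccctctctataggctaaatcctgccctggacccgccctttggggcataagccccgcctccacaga
Mrps27, chr13:99344706-99344785: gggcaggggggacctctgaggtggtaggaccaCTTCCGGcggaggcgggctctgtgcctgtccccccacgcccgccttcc
Mrpl22, chr11:58171541-58171660: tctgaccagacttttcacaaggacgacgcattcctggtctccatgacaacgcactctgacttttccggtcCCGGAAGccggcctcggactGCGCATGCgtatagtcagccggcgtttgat
Mrps27 holds the ETS core, with a YY1 core elsewhere in its promoter, and Mrpl22 the ETS and NRF1 cores. None of the 3 motifs was found in the whole promoters of Mrps17 and Mrps14. Other members lower in every skin library than in every SDLN library, such as Mrpl34 with an ETS core, hold motifs too. A link between motif and level was not tested.

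Summed over all 77 genes, the mitochondrial ribosomal protein genes stood at 2434, 2629, 2750 and 2805 CPM in skin 1 to 4, against 3765, 3468 and 4798 CPM in SDLN 1 to 3. Every skin library was below every SDLN library. The mean sum was 2655 ± 164 CPM in skin (SD, n = 4) and 4010 ± 698 CPM in SDLN (SD, n = 3), a ratio of 0.662. The means of the log2 sums differed by -0.58. The difference was -0.54 without skin 1 and -0.45 without SDLN 3, and it was -0.60 without skin 3, the library with the most keratinocyte and fibroblast markers. The groups did not overlap in any of these cases. In sorted bulk samples, fewer cells with the transcripts and fewer transcripts per cell cannot be told apart.

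By their sums, both subunits stood lower in skin. The large subunit genes summed to 1743, 1847, 1892 and 2074 CPM in skin 1 to 4, against 2720, 2469 and 3437 CPM in SDLN 1 to 3. The small subunit genes summed to 692, 782, 858 and 731 CPM in skin 1 to 4, against 1045, 999 and 1361 CPM in SDLN 1 to 3. In neither subunit did a skin library reach the lowest SDLN library. The sum in skin was 0.657 of that in SDLN for the large subunit and 0.675 for the small subunit. Within a library, the large subunit sum divided by the small subunit sum was 2.52, 2.36, 2.21 and 2.84 in skin 1 to 4, against 2.60, 2.47 and 2.53 in SDLN 1 to 3. The mean ratio was 2.48 ± 0.27 in skin (SD, n = 4) and 2.53 ± 0.0661 in SDLN (SD, n = 3), the groups overlapped, and the skin libraries lay further apart than the SDLN libraries. On the log2 scale the ratio differed by -0.04. With the median of log2(CPM + 1) of each subunit's genes in place of sums it differed by -0.19, and the groups overlapped too. It differed by 0.01 with Mrps30 and Mrps18a in the large subunit, where their proteins are found, and without Mrps36. Restricted to members with a count in all 7 libraries, the difference was 0.006, and the groups overlapped in both cases. The difference between the subunits was not tested.

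**Figure D1:**
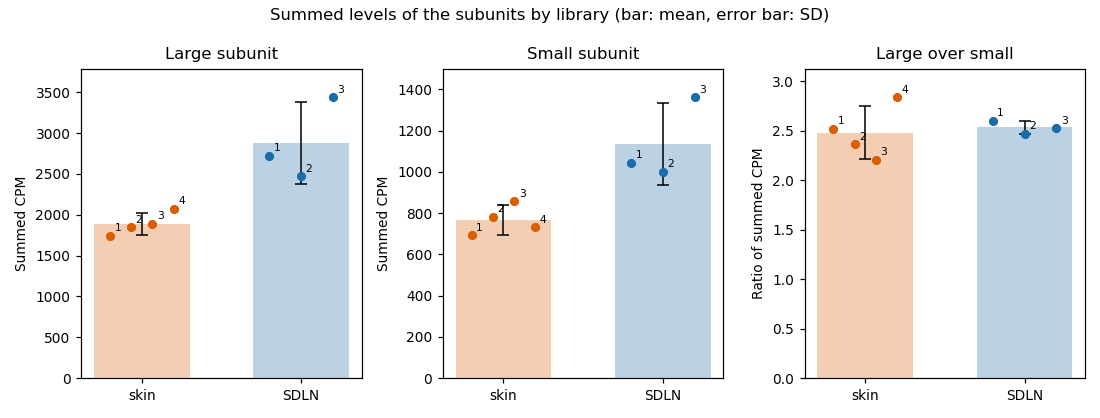
Summed CPM of the large subunit genes (left) and the small subunit genes (middle), and the ratio of the sums (right), in each of 4 skin and 3 SDLN libraries; bars are means, error bars SDs, and points are labelled with the library number. The skin libraries lie at 1743 to 2074 CPM for the large subunit, all under the lowest SDLN library at 2469 CPM, while the ratios overlap.

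Gene by gene, 76 of the 77 members passed the low-count filter and were tested. No member passed edgeR's quasi-likelihood test at an adjusted p of 0.05, where 7.24% of the 11376 genes tested did. At an unadjusted p of 0.05, 6 members differed in either direction, where 18.6% of all genes did, and 5 of them were lower in skin, where 8.52% of all genes were; the sixth, Mrpl54, was higher. DESeq2 called 3 members (Mrps17 and Mrps14 lower, Mrpl54 higher), with a background of 13.4% of the 10657 genes it gave an adjusted p. The limma-voom test called 1 (Mrps17, lower), with a background of 8.22%. The share of members called was thus below the share of all genes called under each of the 3 tests. In 18 members (23.7%) every skin library lay below every SDLN library, as in 16.5% of all genes tested. In 1 member, Mrpl54 (1.32%), every skin library lay above, as in 10.1% of all genes tested.

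The estimates leaned to one side without passing the test. The log2 fold change of skin over SDLN was below 0 for 61 of the 76 members (80.3%), and for 48.2% of all genes tested. Its median was -0.53 over the members and 0.05 over all genes. The gap between these medians was smaller with limma-voom, which gave -0.86 over the members and -0.62 over all genes. Where the mean over the libraries reached 20 CPM, 51 of 59 members (86.4%) had an estimate below 0, with a median of -0.58, and 47.2% of 7046 genes, with a median of 0.07. Without skin 1 the median over the members was -0.49 with 55 estimates below 0, and without SDLN 3 it was -0.43 with 57 below 0. The large subunit had 38 estimates below 0 and 9 above, with a median of -0.64 and quartiles of -1.02 and -0.31. The small subunit had 23 below 0 and 6 above, with a median of -0.36 and quartiles of -0.71 and -0.06. Subunits here follow the gene symbols, and that median is the estimate of Mrps36, whose protein is no longer counted as ribosomal. By their proteins, Mrps30 and Mrps18a belong to the large subunit. The small subunit lists given below, which leave these genes out, had medians of -0.40 and -0.54. Members lower in every skin library were 12 of 47 in the large subunit (25.5%) and 6 of 29 in the small subunit (20.7%).

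**Figure D2:**
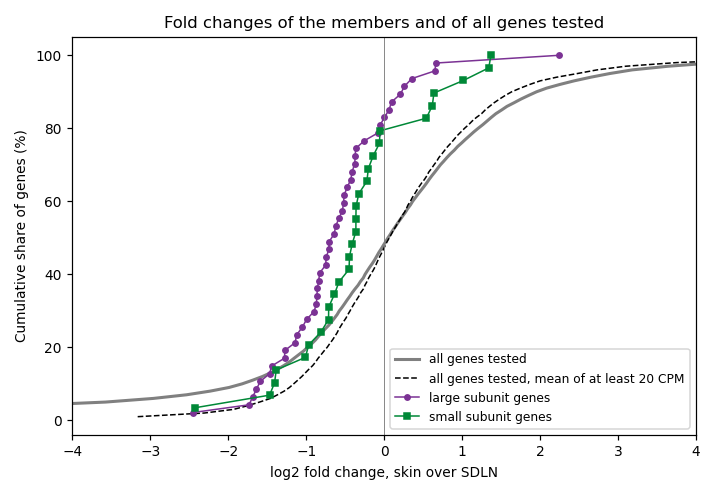
Cumulative share of genes (%) by log2 fold change of skin over SDLN for the 47 large subunit genes (purple circles), the 29 small subunit genes (green squares), all 11376 genes tested (grey line) and those averaging 20 CPM or more (dashed line); fold changes beyond 4 in either direction are outside the axis. Both subunit curves, drawn by gene symbol, lie left of the grey line over the middle of the range. Their medians are -0.64 and -0.36 against 0.05, and the large subunit curve ends in a single gene, Mrpl54, at 2.25.

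Within the small subunit, Mrps17 had the smallest p-value of all members. Mrps17 (chr5:129715497-129722556), the counterpart of a bacterial protein that binds the small ribosomal RNA early in assembly, stood at 67.1, 41.8, 57.8 and 36.4 CPM in skin 1 to 4, against 122, 119 and 162 CPM in SDLN 1 to 3. The skin libraries all lay below the SDLN libraries, at 50.8 ± 14.2 CPM in skin (SD, n = 4) against 134 ± 24.2 CPM in SDLN (SD, n = 3). Its log2 fold change was -1.40 (SE 0.36, edgeR adjusted p = 0.0540), which missed the threshold. It passed without skin 1 (adjusted p = 0.0317), without a scaling factor (0.0471), with limma-voom (0.0384) and with DESeq2 (0.00313), and over all alternatives the adjusted p ranged up to 0.358.

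Mrps14 (chr1:160195215-160202170), a protein of the small subunit head near the decoding site, stood at 62.2, 58.7, 100.7 and 81.1 CPM in skin 1 to 4, against 131, 129 and 197 CPM in SDLN 1 to 3. The groups did not overlap, and its log2 fold change was -1.01 (SE 0.34, edgeR adjusted p = 0.139; DESeq2 0.0391). Mrps27 (chr13:99344786-99415562), a pentatricopeptide repeat protein found only in the mitochondrial small subunit, stood at 19.6, 18.8, 36.7 and 30.5 CPM in skin 1 to 4, against 48.6, 47.8 and 42.6 CPM in SDLN 1 to 3. Its groups did not overlap either, with a log2 fold change of -0.81 (SE 0.53, edgeR adjusted p = 0.505). It overlaps the exons of 6430562O15Rik on the other strand, and the sources used here do not give the strand setting of the counting.

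Mrps5 (chr2:127587222-127606829), the counterpart of a bacterial protein at the messenger entry, stood at 1.29, 18.4, 15.3 and 12.6 CPM in skin 1 to 4, against 28.0, 26.6 and 38.7 CPM in SDLN 1 to 3. Skin 1 was far below the other skin libraries, and the log2 fold change was -1.38 (SE 0.93, edgeR adjusted p = 0.528). Mrps6 (chr16:92058270-92112227), a protein of the platform side of the small subunit, had an estimate in the other direction. It stood at 7.73, 40.9, 49.4 and 19.8 CPM in skin 1 to 4, against 18.7, 16.4 and 8.57 CPM in SDLN 1 to 3. The groups overlapped, with a log2 fold change of 1.02 (SE 0.85, edgeR adjusted p = 0.631). Its exons overlap those of Slc5a3 and Gm49711 on the same strand, and 17.3% of its 50-base stretches also stand in transcripts of other genes.

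In the large subunit, Mrpl54 was the sole member with every skin library above every SDLN library. Mrpl54 (chr10:81264713-81266934), a mitochondria-specific protein near the stalk that recruits translation factors, stood at 18.3, 38.3, 52.2 and 30.5 CPM in skin 1 to 4, against 6.44, 13.0 and 2.47 CPM in SDLN 1 to 3. The mean was 34.8 ± 14.2 CPM in skin (SD, n = 4) and 7.32 ± 5.34 CPM in SDLN (SD, n = 3), with a log2 fold change of 2.25 (SE 0.87, edgeR adjusted p = 0.206; DESeq2 0.0270). The estimate was 1.82 without SDLN 3 and 2.95 without SDLN 2.

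Mrpl30 (chr1:37890477-37898535), the counterpart of a bacterial protein of the large subunit, stood at 51.0, 17.6, 29.5 and 77.8 CPM in skin 1 to 4, against 122, 95.5 and 148 CPM in SDLN 1 to 3. Its groups did not overlap, with a log2 fold change of -1.47 (SE 0.54, edgeR adjusted p = 0.179). Mrpl35 (chr6:71812997-71826969), likewise with a bacterial counterpart, stood at 46.8, 8.82, 55.5 and 22.4 CPM in skin 1 to 4, against 96.5, 80.5 and 134 CPM in SDLN 1 to 3. Relative to their mean, the skin libraries spread more than the SDLN libraries did (SD over mean 0.646 in skin and 0.267 in SDLN). The log2 fold change was -1.64 (SE 0.63, edgeR adjusted p = 0.211).

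Mrpl36 (chr13:73328513-73332178), a small zinc-binding protein with a bacterial counterpart, stood at 51.8, 17.3, 61.8 and 50.4 CPM in skin 1 to 4, against 94.9, 83.1 and 122 CPM in SDLN 1 to 3. Its log2 fold change was -1.14 (SE 0.49, edgeR adjusted p = 0.263). Its exons overlap those of Ndufs6 on the other strand. Mrpl42 (chr10:95480805-95501940), a mitochondria-specific protein, stood at 30.4, 38.9, 31.1 and 55.3 CPM in skin 1 to 4, against 67.2, 62.3 and 103 CPM in SDLN 1 to 3, with a log2 fold change of -0.99 (SE 0.44, edgeR adjusted p = 0.281). In both genes every skin library was below every SDLN library. Mrpl37, a mitochondria-specific protein with no place under the rule for named genes, is given because it was called without skin 1 (log2 fold change -2.41, adjusted p = 0.0356). It stood at 73.1, 25.7, 9.25 and 10.5 CPM in skin 1 to 4, against 80.8, 73.2 and 87.5 CPM in SDLN 1 to 3, and with all libraries its log2 fold change was -1.44 (edgeR adjusted p = 0.389).

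**Figure D3:**
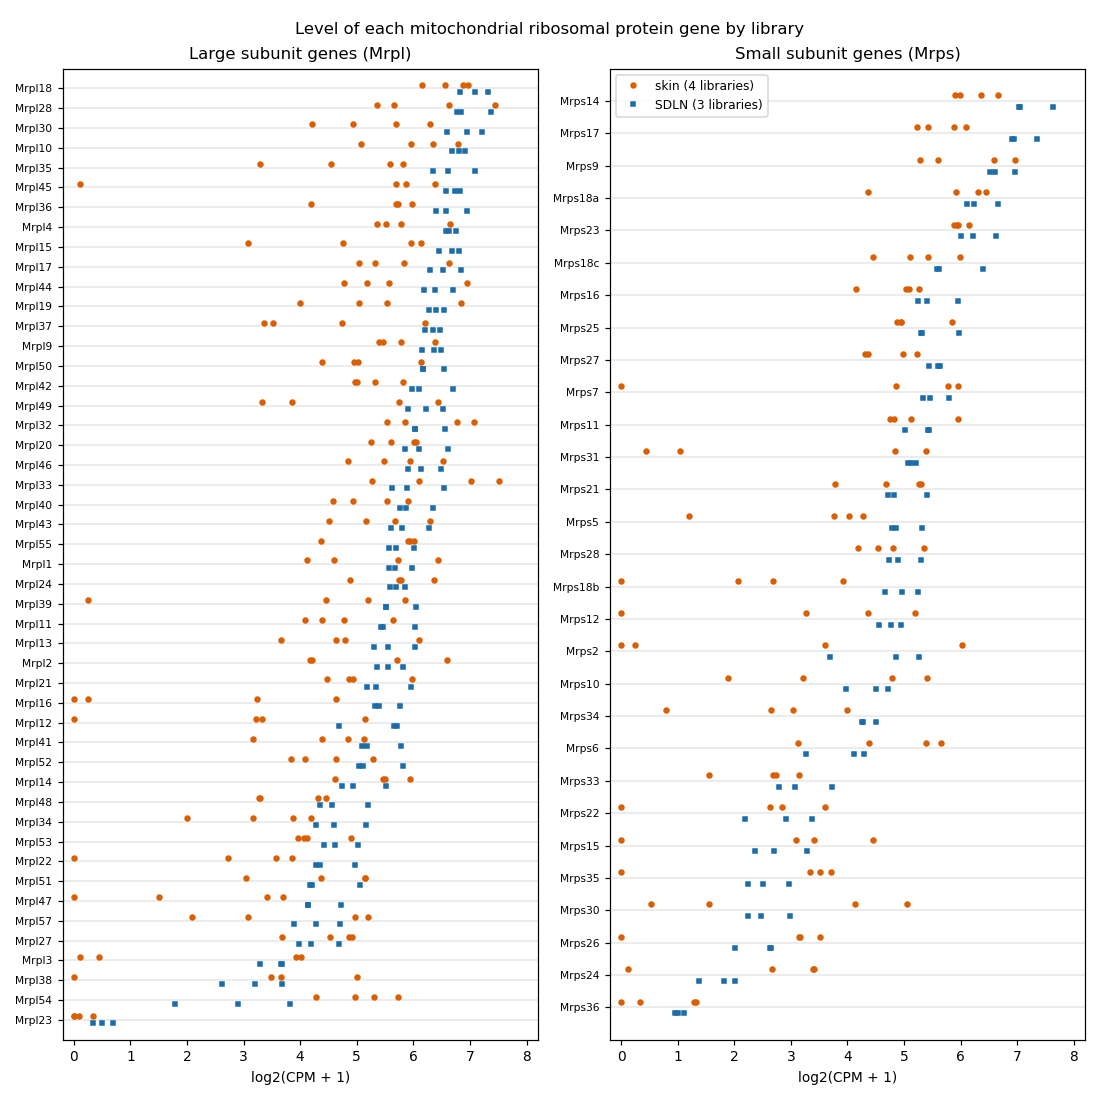
Level of each of the 77 genes in each library, as log2(CPM + 1), for the large subunit (left) and the small subunit (right), ordered by mean level, with 4 skin libraries as orange circles and 3 SDLN libraries as blue squares. For most genes SDLN points cluster more tightly than skin points. The skin points lie to either side of the SDLN points in some genes and all below them in others. Several abundant genes have 1 or more skin points at or near 0.

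The parts of the ribosome were read by lists of proteins with and without a bacterial counterpart and by place in the structure. In this reading Mrps30 and Mrps18a belong to the large subunit, where their proteins are found, and Mrps36 is left out, since its protein is no longer counted as ribosomal. No list held a member called by edgeR. Large subunit proteins with a bacterial counterpart had 24 of 29 estimates below 0 (median log2 fold change -0.62), and those specific to mitochondria 15 of 20 (median -0.64). Small subunit proteins with a counterpart had 13 of 16 below 0 (median -0.40), and those specific to mitochondria 8 of 10 (median -0.54). Each of these medians was below the 0.05 of all genes tested.

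By place, the proteins around the exit tunnel, where the new chain leaves the ribosome beside the membrane, had 6 of 7 estimates below 0 (median -0.86). Mrpl45, which ties the ribosome to the inner membrane, and Mrpl22 and Mrpl47, which line the tunnel side, were lower in every skin library than in every SDLN library, 3 of 7 genes, where 16.5% of all genes tested were. Mrpl45 stood at 50.4, 0.0809, 57.6 and 82.1 CPM in skin 1 to 4, against 105, 94.0 and 112 CPM in SDLN 1 to 3. Thus 1 skin library held almost none of it. Mrpl22 had 0 counts in skin 2, and Mrpl47 had 0 in skin 1. None of the 3 genes was near the threshold (edgeR adjusted p = 0.748 for Mrpl45, 0.685 for Mrpl22 and 0.670 for Mrpl47). The stalk and its base, which recruit translation factors, had 4 of 5 below 0 (median -0.64), the exception being Mrpl54. The central protuberance, which faces the small subunit, had 4 of 6 below 0 (median -0.40), and no member of it separated the groups.

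Per kilobase of exon and by the mean over all 7 libraries, the most abundant large subunit genes were Mrpl18, Mrpl28 and Mrpl36. Mrpl18 (chr17:12911349-12916345), a protein of the central protuberance, averaged 72.1 CPM per kb in skin and 96.9 in SDLN. Its libraries stood at 70.3, 93.0, 116 and 124 CPM in skin 1 to 4, against 135, 112 and 159 CPM in SDLN 1 to 3, which overlapped (log2 fold change -0.43, edgeR adjusted p = 0.580). It overlaps exons of Tcp1 on the other strand. Mrpl28 (chr17:26123500-26126613), a large subunit protein, averaged 65.2 CPM per kb in skin and 93.0 in SDLN. Its libraries spread from 39.8 to 172 CPM in skin and from 108 to 164 CPM in SDLN (log2 fold change -0.51, edgeR adjusted p = 0.724). Mrpl36 averaged 39.0 CPM per kb in skin, where 5 other large subunit genes stood between it and Mrpl28, and 86.1 in SDLN.

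By the same mean, the most abundant small subunit genes per kilobase were Mrps18c, Mrps23 and Mrps21. Mrps18c (chr5:100798627-100804471), a copy of the bacterial protein S18 that sits in the small subunit, averaged 36.9 CPM per kb in skin and 55.1 in SDLN (log2 fold change -0.58, edgeR adjusted p = 0.671). Mrps21 (chr3:95862634-95871519), with a bacterial counterpart, averaged 38.4 CPM per kb in skin and 42.3 in SDLN (log2 fold change -0.14, edgeR adjusted p = 0.955), and its estimate turned to 0.10 without skin 1. Mrps23 (chr11:88204388-88211507), found only in the mitochondrial small subunit, averaged 39.9 CPM per kb in skin and 49.9 in SDLN. It was the steadiest member in skin, at 69.6, 57.9, 60.9 and 60.3 CPM in skin 1 to 4, against 73.5, 62.9 and 97.2 CPM in SDLN 1 to 3 (log2 fold change -0.32, edgeR adjusted p = 0.737). Over the members tested, which leaves out Mrpl23, levels ran from 1.12 to 72.1 CPM per kb in skin and from 1.61 to 96.9 in SDLN for the large subunit (medians 17.6 and 24.9). For the small subunit they ran from 0.632 to 39.9 CPM per kb in skin and from 0.587 to 55.1 in SDLN (medians 6.49 and 10.4).

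In the levels of single genes, relative to their mean, skin libraries differed from each other far more than SDLN libraries did. The summed level of the members went the other way, with an SD of 164 CPM in skin and 698 CPM in SDLN. The median coefficient of variation (SD over mean) of a member was 0.589 in skin and 0.231 in SDLN, and it was larger in skin for 73 of 76 members (96.1%). The same held for all genes tested, with medians of 0.750 in skin and 0.187 in SDLN and a larger value in skin for 95.1%. Across the 76 members, log2(CPM + 1) of pairs of skin libraries correlated at 0.430 to 0.578 and of pairs of SDLN libraries at 0.925 to 0.984, where over all genes tested the ranges were 0.651 to 0.746 and 0.970 to 0.988. These are correlations across genes, which are not independent replicates.

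Part of that spread lay in members that were nearly missing from single skin libraries. All 77 members had a count in skin 3 and skin 4 and in each SDLN library, but 70 did in skin 1 and 68 in skin 2. Of the 60 members with an SDLN mean of at least 20 CPM, 10 (16.7%) had under 10 counts in at least 1 skin library. That none did in SDLN was made likely, though not certain, by the choice by SDLN mean. Among all genes with such an SDLN mean it was 1072 of 6545 (16.4%), so the members shared this with other genes. By library it was 5 members in skin 1, 6 in skin 2, 0 in skin 3 and 1 in skin 4.

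Mrps7, which binds the small ribosomal RNA, had 0, 344, 609 and 851 counts in skin 1 to 4, against 632, 571 and 706 in SDLN 1 to 3. Mrpl12, a stalk protein, had 0, 103, 391 and 126 counts in skin 1 to 4, against 726, 740 and 321 in SDLN 1 to 3. Mrps2, a small subunit protein with a bacterial counterpart, had 2, 0, 730 and 157 counts in skin 1 to 4, against 413, 541 and 154 in SDLN 1 to 3. In each of these genes at least 1 other skin library was well filled. Mrpl16, a protein near the peptide-bond centre, had 2, 0, 95 and 334 counts in skin 1 to 4, against 578, 596 and 687 in SDLN 1 to 3. The others were Mrpl45, Mrpl39 and Mrpl22 in the large subunit and Mrps31, Mrps18b and Mrps12 in the small subunit. Mrpl16 and Mrps2 were under 10 counts in both skin 1 and skin 2, and the other 8 members in a single skin library. Mrpl23, a tunnel-side protein, failed the filter and was not in the main test. It had 0, 0, 3 and 1 counts in skin 1 to 4, against 4, 6 and 8 in SDLN 1 to 3. Its highest skin library (0.264 CPM) was just below its lowest SDLN library (0.271 CPM), both close to the floor of 3 counts. In the fit without the filter no member was called.

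SDLN 3, the library with the Y-linked counts, held the members at a higher level than SDLN 1 and SDLN 2. It was the highest of the 3 SDLN libraries for 64 of 76 members (84.2%), against 40.7% of all genes tested. The median ratio of SDLN 3 to the mean of SDLN 1 and SDLN 2 was 1.38 over the members and 1.0 over all genes. The 7 members with the lowest ratios had 0.254 in Mrpl54, 0.364 in Mrps2, 0.447 in Mrps22, 0.490 in Mrps6, 0.494 in Mrpl12, 0.517 in Mrpl38 and 0.640 in Mrpl57. Of these, Mrpl54, Mrps6, Mrpl38 and Mrpl57 had estimates above 0 in skin, and Mrps2, Mrps22 and Mrpl12 had estimates below 0. Other members with an estimate above 0, such as Mrpl33 and Mrps15, were not lowest in SDLN 3. With 1 such library sex and library cannot be told apart.

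**Figure D4:**
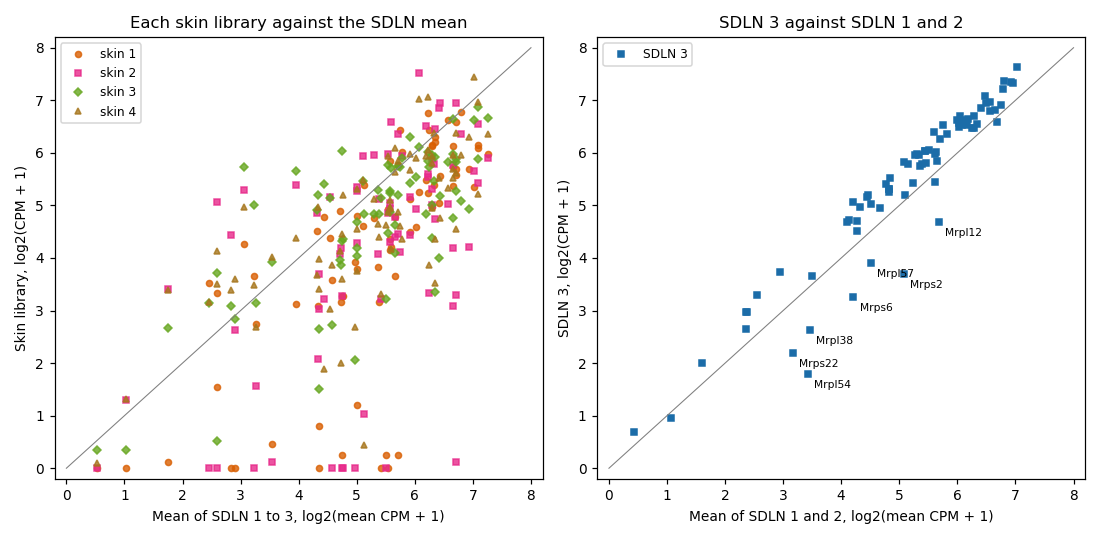
Left, log2(CPM + 1) of each of the 77 genes in each skin library against its SDLN mean; right, the same genes in SDLN 3 against the mean of SDLN 1 and 2, with lines of equality. Skin points scatter widely and reach 0 mostly in skin 1 and skin 2, while SDLN 3 lies above the line for most genes and farthest below it for the 7 labelled ones.

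Genes of the same pathway under other symbols were read beside the members. Of 6 further mitochondrial ribosome proteins in the table, 1 fell and 5 did not pass the test, where 7.24% of all genes tested were called, with a median log2 fold change of -0.97. Ptcd3, a pentatricopeptide repeat protein of the small subunit, had 12.5, 24.3, 40.4 and 72.8 CPM in skin 1 to 4, against 222, 193 and 173 CPM in SDLN 1 to 3. It fell by 2.39 on the log2 scale in skin (SE 0.57, edgeR adjusted p = 0.0443), and the call was lost in 9 of 15 alternatives, among them each that left out an SDLN library (adjusted p 0.165 to 0.178). Dap3, a GTP-binding protein of the small subunit, averaged 100.3 ± 44.9 CPM in skin and 205 ± 33.7 CPM in SDLN (SD, n = 4 and 3; log2 fold change -1.03, edgeR adjusted p = 0.185). Ict1, a release factor built into the large subunit, averaged 34.2 ± 7.09 CPM in skin and 91.9 ± 23.4 CPM in SDLN (log2 fold change -1.43, edgeR adjusted p = 0.0851).

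None of 11 mitochondrial translation factors passed the test, with 9 estimates below 0 and a median log2 fold change of -0.60. The most abundant, Gfm2, a factor that recycles the ribosome, averaged 79.4 ± 61.1 CPM in skin and 89.9 ± 13.7 CPM in SDLN (SD, n = 4 and 3). None of 22 assembly factors passed either, with 14 estimates below 0 and a median of -0.20, and the most abundant, the helicase Dhx30, averaged 192 ± 92.3 CPM in skin and 148 ± 43.9 CPM in SDLN. Of 19 mitochondrial aminoacyl-tRNA synthetases, 1 fell and 18 did not pass, against the same background of 7.24%, with a median of -0.39. Rars2, which charges the mitochondrial arginine tRNA, had 0.460, 0.728, 2.03 and 8.99 CPM in skin 1 to 4, against 85.7, 72.3 and 89.7 CPM in SDLN 1 to 3. It fell by 4.75 on the log2 scale in skin (SE 1.10, edgeR adjusted p = 0.0399), and the call was lost in 8 of 15 alternatives, again without any 1 of the SDLN libraries. None of 11 genes of mitochondrial transcription and RNA processing passed, with 8 estimates below 0 and a median of -0.13, and the most abundant, the poly(A) polymerase Mtpap, averaged 82.4 ± 52.1 CPM in skin and 108 ± 11.6 CPM in SDLN.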

How the data were processed

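The table deposited by the authors holds unnormalized counts of reads for each gene symbol, and HTSeq 0.6.1 is the counter among the tools in the submitters' processing notes. Those notes also list TopHat2 2.0.12 with Bowtie2 2.1.0.0, CASAVA 1.8.2, SAMtools 0.1.19.0, and build mm10. The sources used here give neither the annotation nor the strand setting. RNA of flash-frozen sorted cells was purified on columns and amplified with the SMARTer Ultra Low Input kit, per the labels' protocols. The line for reads that align to several places took 61.2% to 70.4% of a library's counts, and 21 members share over 10% of their 50-base stretches with transcripts of other genes. Exons of 27 members overlap a gene on the other strand and those of 8 a gene on the same strand.

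Genes were filtered with filterByExpr (minimum count 10), scaled by TMM and tested with edgeR 4.0.16's quasi-likelihood test in R 4.3.3, robust, with tissue as the sole term, two-sided, on the whole table, with Benjamini-Hochberg adjustment over 11376 genes and a threshold of 0.05. The script was tested on simulated data. DESeq2 1.42.0 and limma-voom (limma 3.58.1) were alternatives, beside other scalings, no filter, a replicate block and leaving out each library. CPM were taken on TMM-scaled sizes, with SDs between libraries. Floors cover counting error only, since reads were not tied to molecules. Sums over members were not tested. The members, lists, tests and alternatives were chosen with earlier results of these data known.

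Named members were, of each subunit, the 5 with the smallest unadjusted p at a mean of at least 20 CPM and the 3 most abundant per kilobase of exon, and, per list of companion genes, those past the test or else the most abundant. Further members are named for low counts, position in the ribosome or a call under an alternative, and Dap3 and Ict1 were chosen after their values were seen. One marker gene is not reported here.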

Additional observations from a re-analysis of the deposited data

How the results depend on the processing

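The summed level of all members stayed lower in skin, with no overlap of the groups, under all 12 alternatives run, from -0.70 to -0.45 on the log2 scale. The ratio of large to small subunit ran from -0.19, with the median of log2(CPM + 1) in place of sums, to 0.02, against -0.04 as reported; leaving out single libraries gave -0.10 to 0.02. Against 0 members called with all libraries, leaving out 1 library gave 0 to 2 lower and 0 higher, 0 to 1 in the large subunit and 0 to 1 in the small subunit; the calls came without skin 1. DESeq2 called 2 lower and 1 higher, 1 in the large subunit and 2 in the small subunit. No scaling factor and limma-voom each called 1 lower, a small subunit gene. The cause was not tested. Mrps21 turned from -0.14 to 0.10 without skin 1 and to 0.098 without SDLN 3, over a range of -0.34 to 0.10 when single libraries were left out; of the 225 values of named members under alternatives, 217 kept direction and side of the threshold.

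Over all genes, 824 calls became 43 to 76 without 1 SDLN library, 901 to 1270 without 1 skin library, 258 without the filter, 1430 with DESeq2 and 88 at an adjusted p of 0.01. With the replicate number as a block, 0 members were called, lower or higher, in 6 or in 7 libraries, and 42 and 56 of all genes; same-numbered libraries deviated together at 0.0875, -0.00278 and -0.0524, so the numbers were not taken as pairs. The median log2 fold change of all genes was -0.55 and -0.54 under the block and -0.62 under limma-voom, where that of the members was -0.90, -0.88 and -0.86.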

Other observations

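Outside the comparison of tissues, the order of the libraries within each group differed by gene. Among the SDLN libraries, SDLN 2 was the lowest for 52 of 76 members (68.4%), against 32.3% of all genes tested, and SDLN 3 was the lowest for 10 (13.2%), against 39.4%. Among the skin libraries, skin 1 was the lowest for 29 members (38.2%, against 41.0% of all genes tested), skin 2 for 24 (31.6%, against 28.1%), skin 3 for 12 (15.8%, against 16.6%) and skin 4 for 11 (14.5%, against 14.3%). Sequence shared with other transcripts was highest in Mrpl53 (82.0% of its 50-base stretches), Mrps34 (71.8%) and Mrps25 (68.2%), and their counts depend on how shared reads were assigned.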
